A study of Mus musculus with 5 samples.

Results

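The 10 genes described here encode keratins of stratified squamous epithelium. They were taken by symbol from a list and sorted by the layer each is known for. Krt5, Krt14 and Krt15 were grouped as basal, Krt4 and Krt13 as oesophageal type suprabasal, Krt1 and Krt10 as epidermal type suprabasal, and Krt6a, Krt6b and Krt16 as stress keratins. All 10 were found among the 19938 genes with a probe set naming a single gene, and each had 1 such probe set. The genes were selected on their names and with the log2 values of these same 5 arrays already known, including low values in LG21+Asp and high ones in Tep+Asp. Those values are therefore a description, and none of them is tested.

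Gene expression was measured with Affymetrix Mouse Gene 1.0 ST arrays in gut tissue of male ddY mice aged 5 weeks. Each of 5 groups had 1 array and received 2 oral administrations 0.5 h apart, with tissue taken 4 h after the last. The groups were LG21+Asp (Lactobacillus gasseri OLL2716, then aspirin), Tep+Asp (teprenone, a mucosal protective drug, then aspirin), GA+Asp (gum arabic, the vehicle, then aspirin), LG21+GA (the strain, then gum arabic) and GA+GA (gum arabic at both times, the control). The labels do not say if an array holds RNA of a single mouse or of several. With 1 array per group there is no spread between animals to set a difference against, so no difference below has a replicate check and no p-value is given. The number of arrays limits the precision.

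Keratins are the intermediate filament proteins of epithelia. A type II keratin and a type I keratin assemble together, and the partners change as a cell moves up through a stratified epithelium. Dividing basal cells use Krt5 with Krt14. Cells above them use Krt4 with Krt13 in internal linings such as the oesophagus, and Krt1 with Krt10 in cornifying epithelium such as epidermis. Krt6 and Krt16 are known for their induction in wounded or inflamed epithelium. Simple, glandular epithelium uses Krt8 with Krt18 and Krt19. The rodent stomach has a squamous forestomach beside its glandular part.

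Values are RMA values on the log2 scale, as the authors deposited them, so a difference of 1 between arrays is 2-fold. The 11 measured genes of glandular stomach averaged 13.14 in LG21+Asp, 13.16 in Tep+Asp, 13.15 in GA+Asp, 13.14 in LG21+GA and 13.16 in GA+GA. Transcripts of the glandular stomach were thus high in the tissue labelled gut on every array. The 6 squamous keratins Krt5, Krt4, Krt13, Krt1, Krt10 and Krt6b had means over the 5 arrays above the filter level of 7.406, the median of all genes. Krt6b passed narrowly with a mean of 7.410. Krt14 (mean 7.02), Krt15 (7.17), Krt6a (6.24) and Krt16 (5.99) lay below that level. The deposited values carried no detection calls. All 10 keratins lay above Xist, which is silent in males and read between 4.88 and 4.91. This does not show that each was expressed, since Krt16, with the same value on every array, lay above it too. Levels of different probe sets are not set against each other below, since each probe set has its own response.

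RefSeq promoter sequence was at hand for 4 of the 10 genes, Krt5, Krt14, Krt10 and Krt13. For a basal keratin, an oesophageal type and an epidermal type that all had a low value in LG21+Asp, the 250 bases before an annotated transcript start are shown to let their starts be compared (RefSeq, GRCm38.p6, 5′ to 3′ on the gene's strand). Capitals mark the TATA box letters TATAAA, a common variant of them written ATAAAA, and the AP-1 site letters written TGANTCA, each searched on both strands. The AP-2 site letters, GCCNNNGGC, were also searched and were in none of the windows of these 4 genes.
Krt5 (chr15:101712906-101713155, minus strand): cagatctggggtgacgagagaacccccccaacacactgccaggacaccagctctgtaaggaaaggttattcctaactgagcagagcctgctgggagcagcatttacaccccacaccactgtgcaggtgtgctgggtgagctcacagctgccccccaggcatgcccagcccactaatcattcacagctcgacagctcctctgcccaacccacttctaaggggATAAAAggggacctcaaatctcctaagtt
Krt13 (chr11:100121567-100121816, minus strand): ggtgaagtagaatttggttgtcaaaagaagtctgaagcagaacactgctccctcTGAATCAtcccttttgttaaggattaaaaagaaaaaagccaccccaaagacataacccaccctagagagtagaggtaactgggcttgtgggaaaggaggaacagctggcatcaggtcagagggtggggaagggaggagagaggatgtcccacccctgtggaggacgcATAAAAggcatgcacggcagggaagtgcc
Krt10 (chr11:99389365-99389614, minus strand): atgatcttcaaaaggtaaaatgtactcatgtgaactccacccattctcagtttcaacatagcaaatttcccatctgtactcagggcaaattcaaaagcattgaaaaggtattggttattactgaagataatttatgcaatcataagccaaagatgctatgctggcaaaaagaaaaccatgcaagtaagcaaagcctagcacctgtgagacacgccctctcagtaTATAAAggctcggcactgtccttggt
The Krt5 and Krt13 windows lie at the outermost start of the gene and the Krt10 window at an inner transcript start. ATAAAA began 29 bases before the start in Krt5 and 29 bases before it in Krt13, and TATAAA began 26 bases before it in Krt10. Among 32817 RefSeq promoter windows of 250 bases, 17% held ATAAAA and 12.4% held TATAAA on either strand. TGANTCA, which 6.75% of windows held, began 196 bases before the start of Krt13. A second, inner start of Krt13 had neither TATAAA nor ATAAAA in its window and had TGANTCA at 183 and at 34 bases before it. The Krt14 window held none of the letters searched. GCCNNNGGC was in 13.7% of windows. ATAAAA was added to the search after these sequences were seen. A match is a description of letters and not a binding site.

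Krt5, the type II keratin of basal cells, read 7.58 in LG21+Asp, 8.999 in Tep+Asp, 8.07 in GA+Asp, 8.54 in LG21+GA and 8.58 in GA+GA. It was highest with teprenone and lowest with LG21 before aspirin, and both arrays without aspirin read nearly alike. Krt14, its type I partner, read 6.77 in LG21+Asp, 7.40 in Tep+Asp, 6.86 in GA+Asp, 7.01 in LG21+GA and 7.09 in GA+GA, in the same order of arrays over a range of 0.62. Krt15, a further basal type I keratin, read 7.07 in LG21+Asp, 7.14 in Tep+Asp, 7.19 in GA+Asp, 7.27 in LG21+GA and 7.19 in GA+GA. Its range of 0.20 gave it a different order, with the same lowest array.

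Krt4, the type II keratin of internal squamous linings, read 6.87 in LG21+Asp, 9.09 in Tep+Asp, 8.95 in GA+Asp, 8.36 in LG21+GA and 8.88 in GA+GA. A single array, LG21+Asp, stood far below the rest, and LG21+GA was next lowest. Krt13, its type I partner, read 7.97 in LG21+Asp, 9.38 in Tep+Asp, 9.22 in GA+Asp, 9.09 in LG21+GA and 9.22 in GA+GA. The 4 arrays other than LG21+Asp lay close together for Krt13.

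Krt1, the type II keratin of cornifying epithelium, read 8.66 in LG21+Asp, 10.79 in Tep+Asp, 9.67 in GA+Asp, 10.25 in LG21+GA and 10.14 in GA+GA. Krt10, its type I partner, read 9.09 in LG21+Asp, 11.10 in Tep+Asp, 10.02 in GA+Asp, 10.58 in LG21+GA and 10.37 in GA+GA. Both genes ranked the arrays alike, from Tep+Asp through LG21+GA, GA+GA and GA+Asp to LG21+Asp. Here the spread was not due to LG21+Asp alone, since Tep+Asp stood above every other array as well.

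Among the stress keratins, Krt6b read 6.79 in LG21+Asp, 7.71 in Tep+Asp, 7.41 in GA+Asp, 7.51 in LG21+GA and 7.62 in GA+GA. Krt6a, its close relative and neighbour in the genome, read 6.13 in LG21+Asp, 6.34 in Tep+Asp, 6.14 in GA+Asp, 6.41 in LG21+GA and 6.15 in GA+GA. Krt16 had the identical value of 5.99 on all 5 arrays, so nothing can be read from it. Krt6a and Krt6b resemble each other closely, and their probe sets may share signal. No array had both Krt6a and Krt6b at its highest value.

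**Figure D1:**
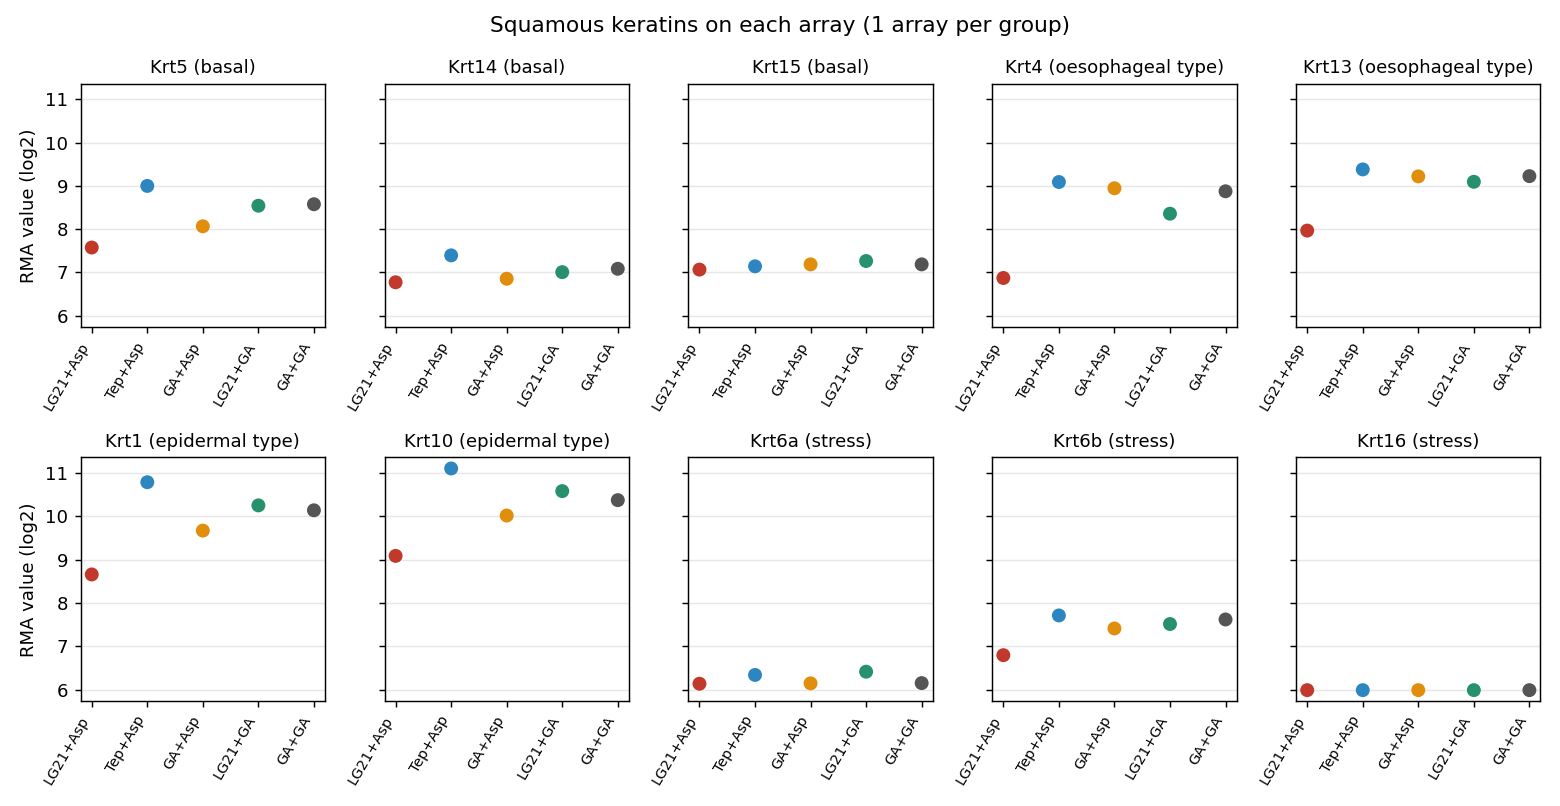
RMA values on the log2 scale (vertical axis) of the 10 squamous keratins, with 1 point for each array and 1 array per group, so no error bars can be drawn. LG21+Asp is the lowest point for 9 of the 10 genes, Tep+Asp is the highest for 7, and Krt16 is flat at 5.99.

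Counted over the list, 9 of the 10 keratins were strictly lowest in LG21+Asp, where 24.3% of the 9969 filtered genes and 15.9% of all genes were so. Tep+Asp was strictly highest in 7 of the 10, against 17.2% of filtered genes and 14.3% of all genes. LG21+GA was strictly highest in the other two that differed at all, Krt15 and Krt6a. No keratin of the list had its lowest or its highest value in GA+Asp or in GA+GA alone. Since the list was chosen with these values known, the counts describe it and support nothing further. In whole tissue, fewer squamous cells and less keratin RNA in each cell cannot be told apart.

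The comparison named in the series' title, LG21 before aspirin against aspirin alone, had the oesophageal type keratins furthest apart. Krt4 was 4.20-fold lower in LG21+Asp than in GA+Asp, a log2 difference of -2.07. Krt13 was 2.38-fold lower (-1.25). Krt1 was 2.02-fold lower (-1.01), and Krt10, just short of 2-fold, was 1.91-fold lower (-0.93). Thus 3 of the 6 filtered keratins were at least 2-fold lower, where 0.211% of filtered genes were 2-fold lower. Krt1 stood at the 2-fold line and dropped out of this count under quantile normalization (-0.97) and under cyclic loess (-0.98), which left 2, Krt4 and Krt13. Basal and stress keratins differed less, with Krt6b at -0.62, Krt5 at -0.49, Krt15 at -0.12 and Krt14 at -0.08. The group medians were -1.66 for the oesophageal type, -0.97 for the epidermal type, -0.12 for the basal and -0.01 for the stress keratins, beside -0.013 over all filtered genes. Of the basal and stress keratins only Krt5 and Krt6b passed the filter, while every suprabasal keratin did. Medians of the basal and stress groups, here and below, thus rest mostly on genes below it, and the layers are not compared evenly. Of the 10 members, 9 lay below 0 and Krt16 was equal, where 58.2% of filtered genes and 38.1% of all genes lay below 0.

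Teprenone before aspirin, compared with aspirin alone, had a different leading group. Krt1 was 2.17-fold higher in Tep+Asp than in GA+Asp (1.12) and Krt10 was 2.12-fold higher (1.09). Basal Krt5 was 1.91-fold higher (0.93) and Krt14 differed by 0.54. Krt4 and Krt13 differed by only 0.14 and 0.16. Of the 6 filtered keratins 2 were at least 2-fold higher, where 0.0802% of filtered genes were 2-fold higher. The group medians were 1.10 for the epidermal type, 0.54 for the basal, 0.19 for the stress and 0.15 for the oesophageal type keratins, and -0.003 over all filtered genes. This comparison and the preceding one share the GA+Asp array.

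Set directly against each other, both with aspirin, LG21 and teprenone gave the widest differences of the 6 pairs of arrays for Krt4, Krt13, Krt1, Krt10, Krt5 and Krt6b. Krt4 was 4.65-fold lower in LG21+Asp than in Tep+Asp, Krt1 4.38-fold, Krt10 4.05-fold, Krt5 2.68-fold and Krt13 2.66-fold. These 5 of the 6 filtered keratins were at least 2-fold lower, where 0.271% of filtered genes were 2-fold lower. The sixth, Krt6b, was 1.89-fold lower (-0.92). Krt14 differed by -0.62, Krt6a by -0.20 and Krt15 by -0.08. This pair joins the lowest array for these genes to the highest.

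Aspirin was compared with no aspirin among the LG21 arrays, LG21+Asp against LG21+GA. Krt1 was 3.02-fold lower (-1.59), Krt10 2.82-fold (-1.50), Krt4 2.80-fold (-1.48) and Krt13 2.18-fold (-1.13). The count was 4 of 6 filtered keratins at least 2-fold lower, where 0.291% of filtered genes were 2-fold lower. Krt5, just short of 2-fold, was 1.95-fold lower (-0.97) and Krt6b was 1.65-fold lower (-0.72). Group medians were -1.55 for the epidermal type, -1.31 for the oesophageal type, -0.28 for the stress and -0.23 for the basal keratins.

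Aspirin alone, GA+Asp against GA+GA, had 0 of 6 filtered keratins at least 2-fold apart, where 0.331% of filtered genes were. Krt5 differed by -0.51, Krt1 by -0.47, Krt10 by -0.36, Krt14 by -0.23 and Krt6b by -0.21. Krt4 differed by 0.07 and Krt13 by -0.01. Krt5, Krt14, Krt1 and Krt10 were thus somewhat lower in GA+Asp while both oesophageal type keratins were nearly level. No tool was run to test either, as each side is a single array.

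LG21 alone, LG21+GA against GA+GA, also had 0 of 6 filtered keratins at least 2-fold apart, where 0.0301% of filtered genes were. Krt4 was 1.43-fold lower (-0.52) and Krt13 differed by -0.13. Krt10 differed by 0.21, Krt1 by 0.11 and Krt6a by 0.26. Krt5 differed by -0.03.

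The difference between the aspirin contrasts of LG21-treated and GA-treated arrays, the LG21 by aspirin interaction, lay below 0 for 9 of the 10 keratins, with Krt16 equal. Krt4 stood at -1.55, Krt10 at -1.14, Krt1 at -1.13 and Krt13 at -1.12. These 4 of the 6 filtered keratins were at least 2-fold below 0, where 0.231% of filtered genes were. Krt6b stood at -0.51, Krt5 at -0.46, Krt6a at -0.27, Krt15 at -0.20 and Krt14 at -0.00475. Each of the 4 arrays enters this value once, and it was not tested.

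**Figure D2:**
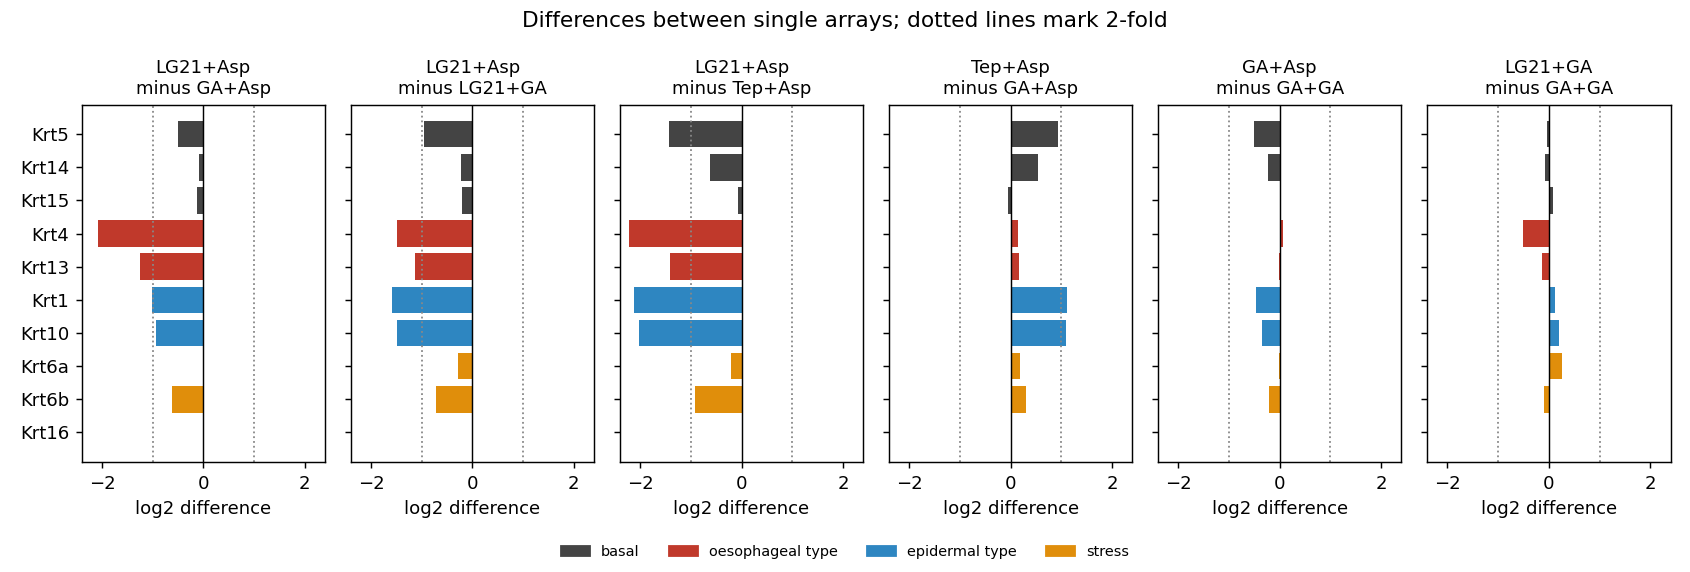
Log2 differences (horizontal axis) of the 10 squamous keratins in 6 pairs of single arrays, as bars coloured by keratin group, with dotted lines at 2-fold. The comparisons of LG21+Asp have the longest bars for Krt4, Krt13, Krt1 and Krt10, whereas Tep+Asp minus GA+Asp has long bars for Krt1, Krt10 and Krt5 and short ones for Krt4 (0.14) and Krt13 (0.16).

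The partners of a pair differed to unequal degrees. Krt1 and Krt10 kept together most closely, and the difference of Krt1 minus that of Krt10 ran from -0.11 to 0.03 over the 6 pairs of arrays and the interaction. For Krt4 minus Krt13 it ran from -0.82 to 0.08, and Krt4 was the further apart of the pair except in Tep+Asp against GA+Asp. For Krt5 minus Krt14 it ran from -0.80 to 0.39. Krt14 has a lower value than the filter level, and how far a low probe set understates a difference was not tested.

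The oesophageal and epidermal types also parted from each other. Averaged over Krt4 and Krt13 and relative to GA+GA, the oesophageal type stood at -1.63 in LG21+Asp, 0.18 in Tep+Asp, 0.03 in GA+Asp and -0.32 in LG21+GA. Averaged over Krt1 and Krt10, the epidermal type stood at -1.38 in LG21+Asp, 0.69 in Tep+Asp, -0.41 in GA+Asp and 0.16 in LG21+GA. In GA+Asp the oesophageal minus the epidermal type was 0.44, while it was -0.51 in Tep+Asp, -0.49 in LG21+GA and -0.25 in LG21+Asp. The sign of this balance of means therefore differed between GA+Asp and the 3 arrays that had LG21 or teprenone, all 4 read against the same GA+GA array. In LG21+Asp the sign came from Krt4 alone, at 6.87 against 8.88 in GA+GA. Krt13, at 7.97 against 9.22, was less far below GA+GA than the epidermal type there.

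**Figure D3:**
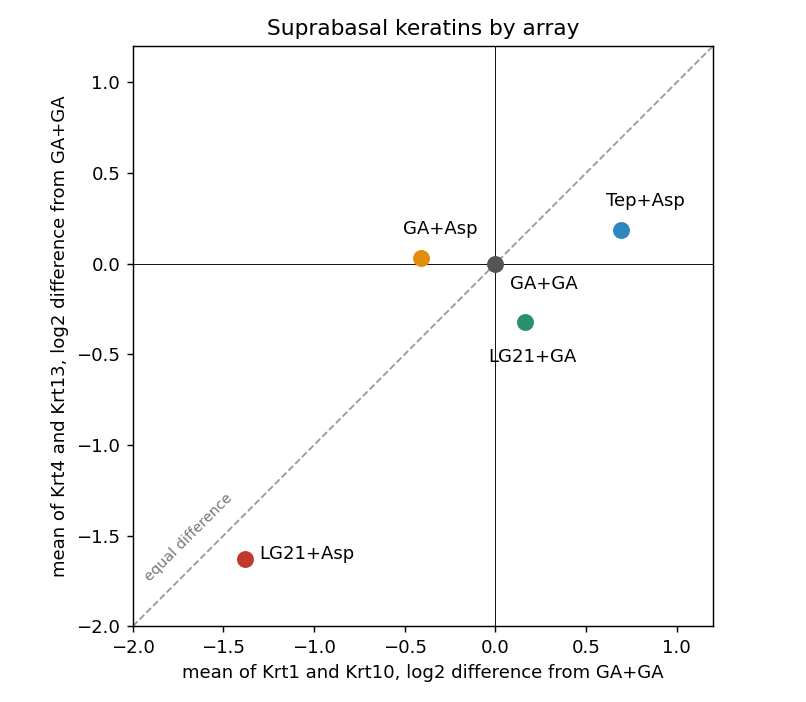
Mean log2 difference from GA+GA of Krt4 and Krt13 (vertical axis) against that of Krt1 and Krt10 (horizontal axis), with 1 point per array and a dashed line where both are equal. GA+Asp lies above the line at 0.03 and -0.41 on the vertical and horizontal axes, Tep+Asp, LG21+GA and LG21+Asp lie below it, and LG21+Asp is far down on both axes.

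Other keratin genes spread less over the same arrays. Among the 42 measured keratin genes outside the list, 0 had arrays at least 2-fold apart and 33 had a range under 0.2. Only 11 of the 42 lay above the filter, so small ranges of the rest cannot be read as evenness. A count of 0 is also near the share over all genes, given next. On the list 5 of 10 had arrays at least 2-fold apart, where 0.632% of filtered genes and 0.813% of all genes did. Without the LG21+Asp array 2 of the 10, Krt1 and Krt10, still did, and without any other single array 5 did. The glandular keratins Krt8, Krt18 and Krt19 had ranges of 0.02, 0.08 and 0.05. They read high on the scale, which limits how far their evenness can be read. The widest of the other keratins was Krt17, a stress and appendage keratin whose level was below the filter. Krt17 read 6.48 in LG21+Asp, 7.03 in Tep+Asp, 6.60 in GA+Asp, 6.88 in LG21+GA and 6.99 in GA+GA, which is the array order of Krt5 and Krt14. Krt7, a keratin of simple and ductal epithelium, ran another way, with 8.996 in LG21+Asp, 8.77 in Tep+Asp, 8.77 in GA+Asp, 8.46 in LG21+GA and 8.76 in GA+GA.

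Of the other keratins above the filter, Krt20, a keratin of gut surface cells, had a range of 0.36 and its highest value, 10.49, in GA+GA. Krt79 had a range of 0.27, Krt23 of 0.16, Krt80 of 0.10, Krt87 of 0.06, Krt33b of 0.02 and Krt88 of 0.01. The 21 measured keratins of hair and inner root sheath had list medians between 0.00 and 0.04 in all 6 pairs and the interaction. None was 2-fold apart, a count near the 0.813% of all genes with arrays 2-fold apart, and only 1 of the 21 passed the filter. Krt2 and Krt77, keratins known mainly from epidermis of the skin, lay below the filter with ranges of 0.23 and 0.12.

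**Figure D4:**
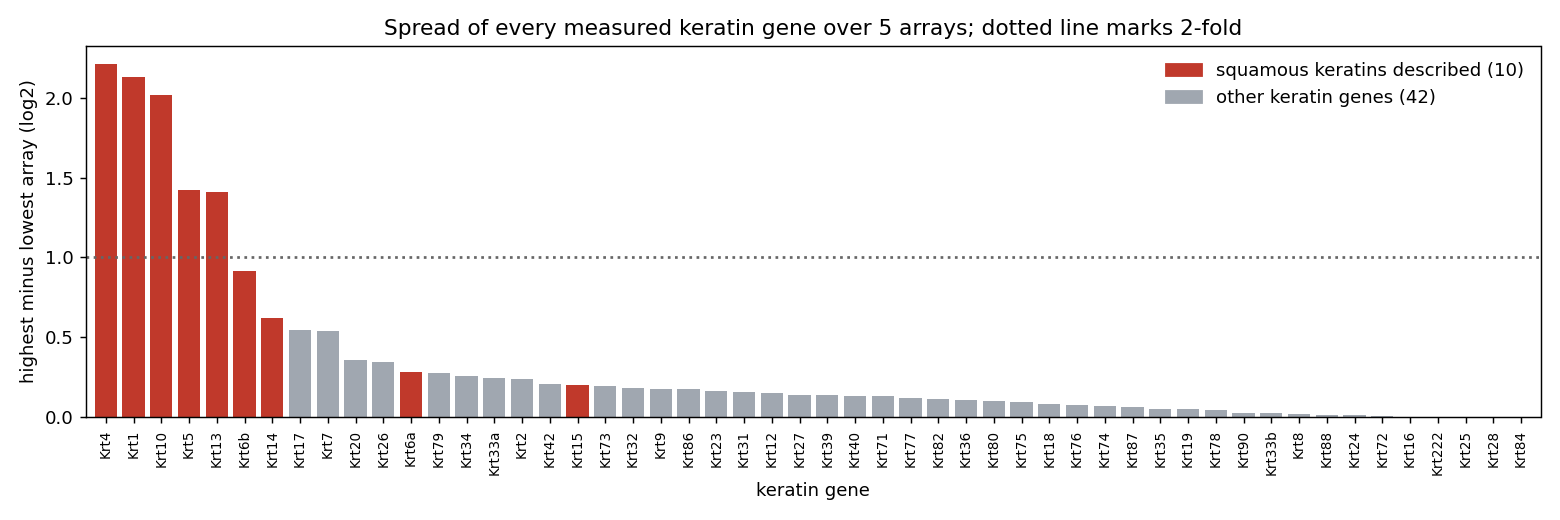
Highest minus lowest array on the log2 scale (vertical axis) for each of 52 measured keratin genes, in order of size, with the 10 squamous keratins in red and the other 42 in grey. The dotted line marks 2-fold; Krt4, Krt1, Krt10, Krt5 and Krt13 lie above it and every grey bar lies below it.

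In the genome the type I members lie on chromosome 11 and the type II members on chromosome 15. Krt10 has Krt28 and Krt12 as its neighbours, and these had ranges of 0.00 and 0.15, against 2.02 for Krt10. Krt4 lies between Krt76 (0.08) and Krt79 (0.27) and had a range of 2.22. Krt1, with a range of 2.13, lies between Krt2 and Krt77. Adjoining genes of the clusters thus had unlike ranges. However, Krt28, Krt12, Krt76, Krt2 and Krt77 lay below the filter, and Krt28 had the same value on every array. Their small ranges cannot be read as evenness. Krt16, identical on all 5 arrays, lies between Krt14 and Krt17.

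Genes of epidermal differentiation mostly had the same lowest and highest arrays as Krt1 and Krt10. Of 14 measured, 11 were strictly lowest in LG21+Asp and 11 strictly highest in Tep+Asp, where 15.9% and 14.3% of all genes were. Flg2, Krt2 and Krt77, all below the filter, were lowest in GA+Asp instead. The order of the arrays in between differed from gene to gene. The lists used here were written with earlier results of these arrays known. Of the 14 measured genes, 6 were at least 2-fold lower in LG21+Asp than in GA+Asp, with a median of -0.72, where 0.145% of all genes without a filter were 2-fold lower. In Tep+Asp against GA+Asp, 2 were at least 2-fold higher, Spink5 and Elovl4, with a median of 0.61, where 0.0802% of all genes were. Loricrin (Lor), the main cornified envelope protein, read 7.68 in LG21+Asp, 10.11 in Tep+Asp, 9.32 in GA+Asp, 9.42 in LG21+GA and 9.38 in GA+GA. Krtdap, a keratinocyte differentiation gene, was at -1.63 in LG21+Asp against GA+Asp and at 0.92 in Tep+Asp against GA+Asp. Lce1c, a late cornified envelope gene with near-identical relatives, was at -1.87 and at 0.74 in the same comparisons.

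Among 10 genes of mucosal squamous differentiation, Sprr3 and Cnfn were at least 2-fold lower in LG21+Asp than in GA+Asp, with -1.35 and -1.05, where 0.145% of all genes were 2-fold lower. The median of that list was -0.12, and no other gene of it was 2-fold apart in this comparison. Of the 10 genes, 6 passed the filter. Among all 10, 7 lay below 0, 1 lay above (at 0.15) and 2 were equal. Of filtered genes 58.2% lay below 0, and of all genes 38.1%. Sprr3, a cornified envelope precursor of the oesophagus, read 8.72 in LG21+Asp, 10.91 in Tep+Asp, 10.06 in GA+Asp, 10.38 in LG21+GA and 10.39 in GA+GA. Tgm1, a transglutaminase that crosslinks the envelope, was at -0.13 in LG21+Asp against GA+Asp and at 0.32 in Tep+Asp against GA+Asp.

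Most genes that anchor or control keratins in squamous cells differed little. Of 11 desmosome and plakin genes, 0 were 2-fold apart in LG21+Asp against GA+Asp (median -0.02), where 0.276% of all genes were. Of the 11, 7 lay below 0, 1 above and 3 were equal, where 58.2% of filtered genes and 38.1% of all genes lay below 0. The filter was passed by 8 of the 11, so the share of filtered genes is the nearer background. Dsg3 at -0.56 and Dsc3 at -0.33 were furthest below. Both were under the filter, lowest in LG21+Asp and highest in Tep+Asp. The plakin gene Ppl, whose product links the envelope to keratin filaments, was at -0.22 in LG21+Asp against GA+Asp. In LG21+Asp against Tep+Asp, 1 of the 11 was 2-fold lower, Dsg3 at -1.05, which was below the filter, where 0.231% of all genes were 2-fold lower. None of 7 basal adhesion genes and none of 11 squamous transcription factors was 2-fold apart in any of the 6 pairs, and with 0.813% of all genes having arrays 2-fold apart, such counts are near the background. Among the basal adhesion genes Lamb3, a laminin chain, had the widest range of those above the filter at 0.19. Of the 11 transcription factors, 9 lay below 0 in LG21+Asp against GA+Asp, where 58.2% of filtered genes and 38.1% of all genes did, and their median was -0.03. Klf4, a zinc finger factor also active in glandular epithelium, read 10.19 in LG21+Asp, 10.22 in Tep+Asp, 10.23 in GA+Asp, 10.48 in LG21+GA and 10.25 in GA+GA. Many of the anchoring genes and of these factors are used by glandular cells as well. The 8 alarm genes of stressed keratinocytes all lay below the filter. None was 2-fold apart in any of the 6 pairs, a count again near the background share of 0.813% of all genes.

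The profiles most like those of the keratins were found by the root mean square difference over the 5 arrays between log2 values centred on each gene's own mean. Candidates were filtered genes with a range of at least 1, or of at least 0.5 for Krt5, so genes with little spread could not be named. The 10 keratins of the list and genes with predicted or clone names were left out of the candidates. Among 57 candidates, Hrnr came closest to the mean of Krt1 and Krt10 (0.10), followed by Sprr3 (0.13), Them5 (0.14), Spink5 (0.15) and Lce1j (0.16). Hrnr encodes hornerin, a cornified envelope protein, and read 8.01 in LG21+Asp, 10.01 in Tep+Asp, 9.16 in GA+Asp, 9.50 in LG21+GA and 9.30 in GA+GA. Among these candidates Krt4 had no neighbour as close. Its nearest were Crct1 (0.25), Serpinb12 (0.26), Kprp (0.27), Lor (0.27) and Krtdap (0.29). For Krt5, with 122 candidates, they were Mt4 (0.13), Elovl4 (0.13), Dmkn (0.15), Dapl1 (0.16) and Spink5 (0.20).

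Markers of other tissues also differed between these arrays. The summed log2 level of the 10 hepatocyte genes was 92.3 in LG21+Asp, 82.9 in Tep+Asp, 73.3 in GA+Asp, 99.4 in LG21+GA and 104.9 in GA+GA, with the albumin gene Alb at 11.80 in LG21+Asp, 10.41 in Tep+Asp, 7.43 in GA+Asp, 12.37 in LG21+GA and 12.69 in GA+GA. That order differs from the order of every keratin of the list that varied. The summed level of 10 skeletal muscle genes, a tissue of the mouse oesophageal wall, was 67.5 in LG21+Asp, 67.2 in Tep+Asp, 70.9 in GA+Asp, 67.2 in LG21+GA and 67.4 in GA+GA. Muscle genes were thus higher in GA+Asp, by a mean of 0.34 against GA+GA, and only 3 of the 10 passed the filter. The GA+Asp array was neither the highest nor the lowest for any keratin of the list that varied. The 9 melanocyte and sebaceous genes, markers of skin, all lay below the filter, with list medians of 0.00 in each of the 6 pairs. An order of arrays for liver or muscle markers does not show how much squamous tissue an array held. The part that tissue sampling has in the keratin differences was not tested.

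**Figure D5:**
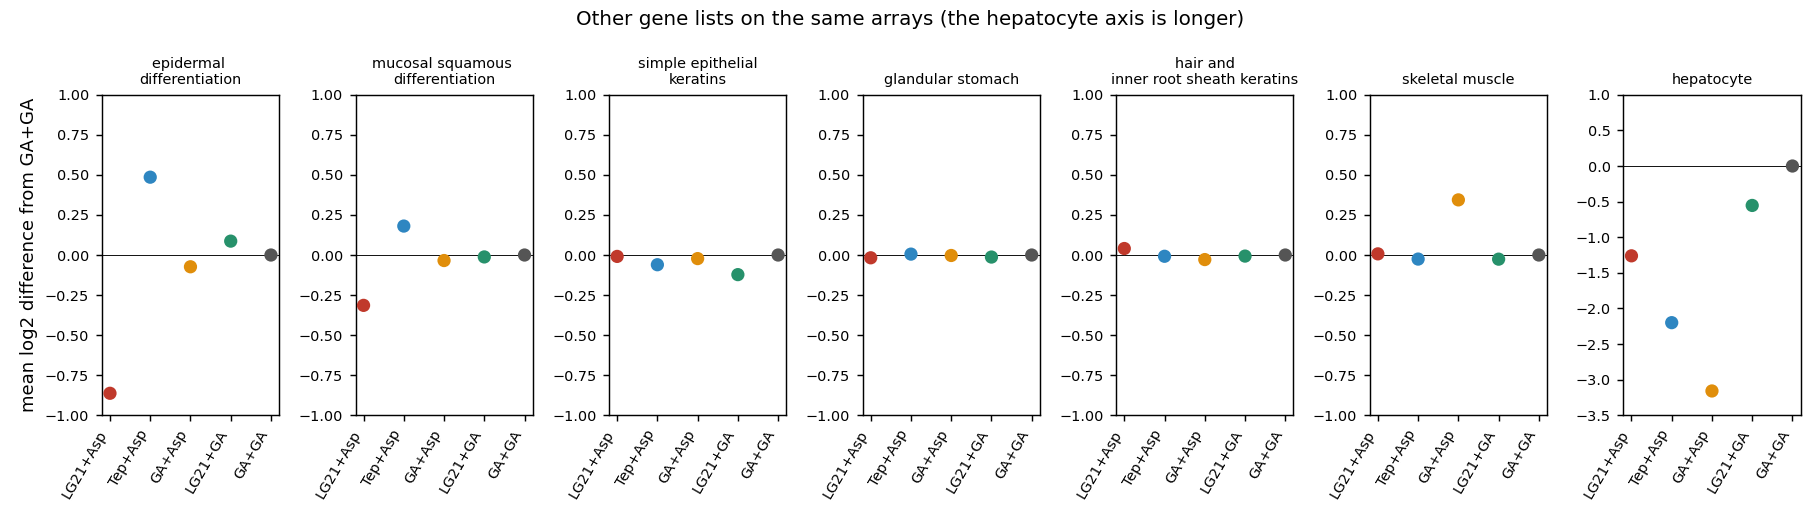
Mean log2 difference from GA+GA (vertical axis, longer in the hepatocyte panel) of 7 gene lists, with 1 point per array. Epidermal differentiation genes are lowest in LG21+Asp (-0.86) and highest in Tep+Asp (0.49). Glandular stomach genes stay near 0 but read high on the scale, which limits how far their evenness can be read. Simple epithelial keratins lie between -0.12 in LG21+GA and 0 in GA+GA. Their mean includes Krt7 and Krt20, which varied more than Krt8, Krt18 and Krt19. Skeletal muscle is high in GA+Asp (0.34) and hepatocyte genes are lowest in GA+Asp (-3.16).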

How the data were processed

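Total RNA from gut tissue was hybridised to 5 arrays, 1 per group. Per the labels, the authors made RMA values (background-corrected, normalized across arrays and summarized by probe set) with Expression Console; the design text instead credits the Exon Array Computational Tool of Affymetrix. The deposited values were taken as log2 from their range of 1.32 to 13.87. Versions and build are not given in the sources used here. Of 35557 probe sets, 21789 named a single gene, 1621 several and 12147 none in the platform annotation. A gene was represented by its single-symbol probe set with the highest mean over 5 arrays, and genes with a mean above the median of all genes (9969 of 19938) formed the background. The authors' normalization was kept. Arrays were subtracted on the log2 scale for 6 pairs and the interaction, and members at least 2-fold apart were counted. No test was run, and a comparison pooling arrays across pretreatments was not run.

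The members and lists were chosen with earlier results of these data known. The text names all members, every other keratin above the filter, up to 3 widest-ranging filtered genes of a list and the 5 nearest profiles. Other genes (Krt2, Krt12, Krt17, Krt28, Krt76, Krt77, Dsg3, Dsc3, Flg2 and Xist) were added as neighbours, controls or after their values were seen. Exact ties between arrays affected 63.4% of probe sets. Alternatives were the mean of probe sets, 1.5-fold and 3-fold thresholds, other filters, quantile normalization and cyclic loess with 3 iterations (limma 3.58.1 in R 4.3.3). Counting was tested on simulated data.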

Additional observations from a re-analysis of the deposited data

Results flagged for a closer look

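Krt1 and Krt10 stood out because the LG21 contrast had opposite signs with and without aspirin. Krt1 differed by -1.01 in LG21+Asp against GA+Asp and by 0.11 in LG21+GA against GA+GA, which makes an interaction of -1.13. Krt10 differed by -0.93 in LG21+Asp against GA+Asp and by 0.21 in LG21+GA against GA+GA, an interaction of -1.14. With a single array in each group neither difference was tested, and the values without aspirin are small.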

How the results depend on the processing

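Quantile normalization and cyclic loess each lowered the count of 2-fold members in LG21+Asp against GA+Asp to 2, where the main setting gave 3, as Krt1 moved to -0.97 and -0.98; they and the mean of probe sets changed no other such count in the 6 pairs and the interaction. The largest shift of a member's difference was 0.0502 on the log2 scale among 210 checked; the mean of probe sets moved none because each member had 1. Counts depended on the fold. At 3-fold, 1 member (Krt4) was lower in LG21+Asp against GA+Asp, 3 against Tep+Asp and 1 against LG21+GA, 0 were higher in Tep+Asp against GA+Asp and 0 passed in the interaction. Arrays at least 2-fold apart were found for 5 members with all arrays and for 2 without LG21+Asp, an alternative chosen after seeing the data. At 1.5-fold, 5 were lower in LG21+Asp against GA+Asp. Shares of all genes past 1.5-fold or 3-fold were not computed, so the member counts at these folds have no background. The counts over all genes given below are at 2-fold. With the mean in place of the median, the basal group stood at -0.23 and the stress group at -0.21 in LG21+Asp against GA+Asp, the stress group at -0.37 against Tep+Asp and the basal group at -0.47 against LG21+GA; means and medians differ there because each group holds members with little difference. Counts over all genes with the median filter, with no filter and with the 75th percentile filter were 36, 55 and 15 for LG21+Asp against GA+Asp, 9, 20 and 4 for Tep+Asp against GA+Asp, 34, 57 and 14 for LG21+Asp against Tep+Asp, 30, 41 and 14 for LG21+Asp against LG21+GA, 33, 106 and 8 for GA+Asp against GA+GA, 3, 22 and 0 for LG21+GA against GA+GA, and 55, 126 and 20 for the interaction. No paired analysis was possible because each group has 1 array. Single arrays limit every value, and Krt14, Krt15, Krt6a and Krt16 lay near or below the middle of the signal range.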
